A study of Mus musculus with 8 samples.

Results

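The adaptors, kinases and ubiquitin ligases that carry signals from Toll-like receptors through MyD88 were followed in dendritic cells of leukemia-bearing mice by RNA sequencing. The 10 genes were Myd88, Tirap, Irak1, Irak2, Irak3, Irak4, Traf3, Traf6, Map3k7 and Tab1. They were taken by name through their Entrez gene IDs and all 10 were found among the 27179 gene IDs of the count table and passed the filter on low counts. Plasmacytoid dendritic cells (pDC) and conventional dendritic cells (cDC) had been sorted from spleens of C57BL/6 mice after 2 days of panobinostat, an inhibitor of histone deacetylases (columns marked LBH), or of vehicle (columns marked D5W, dextrose in water). This gave 4 groups, namely pDC under panobinostat, pDC under vehicle, cDC under panobinostat and cDC under vehicle. Each group had 2 libraries, and each library came from a pool of 3 to 6 mice. All groups, the vehicle groups included, came from mice that carried a leukemia, so no healthy mouse stands behind any value. Which leukemia they carried, and their age and sex, are not stated in the labels.

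Toll-like receptors and the interleukin-1 receptor family recruit MyD88 through a shared domain, and TIRAP bridges MyD88 to receptors at the cell surface. MyD88 assembles IRAK4 with IRAK1 and IRAK2 into a signalling complex, IRAK3 (IRAK-M) acts as a brake on it, and TRAF6 passes the signal on by building ubiquitin chains that activate TAK1 (encoded by Map3k7) with its partner TAB1. In pDC, which sense nucleic acids through TLR7 and TLR9, the same complex also drives type I interferon, and TRAF3 is known for its role in that branch and as a brake on the non-canonical NF-kB pathway.

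The libraries held 13124861 to 20657429 counts, and the lowest total belonged to replicate 2 of pDC under panobinostat. That library had a count for 10745 genes, against 14927 in the other library of its group and 16109 to 19950 in the vehicle pDC and all cDC libraries. Its log2 CPM correlated with that of its replicate at r = 0.801 across genes, against 0.965 to 0.973 in the other 3 groups. Of 150 genes at 10 to 20 CPM (read counts scaled to library size with TMM factors) in the other 7 libraries, 25 (16.7%) had 0 counts in it, and none did when any other library was set apart in the same way; this look at zeros was chosen after the data were seen. The 10 pDC markers, among them Siglech and Tcf4, summed to 15540 to 21060 CPM in panobinostat pDC, 12790 to 14720 in vehicle pDC, 183 to 214 in panobinostat cDC and 217 to 276 in vehicle cDC, so they were high where the titles name pDC and low where they name cDC. The 10 cDC markers also reached 9530 to 18940 CPM in panobinostat pDC and 7120 to 10630 in vehicle pDC, against 26890 to 29260 in panobinostat cDC and 18350 to 22270 in vehicle cDC. The extraction protocol names leukemia cells as what was sorted, whereas sample titles and source names give pDC or cDC, which were followed. In such bulk libraries, fewer cells of a type and less RNA per cell cannot be told apart.

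The starts of Traf3, Tirap, Irak2 and Irak3, the 4 genes called between the cell types when the 4 vehicle libraries were fitted alone (where 32.8% of all genes were called, and none of the 4 over all 8 libraries), are shown from RefSeq, as windows of 300 bases with 250 before and 50 after an annotated start (GRCm38.p6). The windows are those of Traf3 (chr12:111166120-111166419, + strand), Tirap (chr9:35199916-35200215, - strand), Irak2 (chr6:113638217-113638516, + strand) and Irak3 (chr10:120201548-120201847, - strand). The gene of Traf3 spans chr12:111166321-111267155, that of Tirap chr9:35184391-35200291, that of Irak2 chr6:113638467-113695026 and that of Irak3 chr10:120141648-120202130, and the start of the Irak2 window is the outer edge of that gene while the other 3 starts lie within the gene's span. Tirap and Irak3 each have a further window that is not shown. That of Irak3 (chr10:120202081-120202380, - strand) has its start at the outer edge of the gene. It held 8 CpG and 46.7% G or C, against 26 CpG and 67.3% in the Irak3 window shown. Capitals mark a match to the NF-kB consensus, searched on both strands.
Traf3: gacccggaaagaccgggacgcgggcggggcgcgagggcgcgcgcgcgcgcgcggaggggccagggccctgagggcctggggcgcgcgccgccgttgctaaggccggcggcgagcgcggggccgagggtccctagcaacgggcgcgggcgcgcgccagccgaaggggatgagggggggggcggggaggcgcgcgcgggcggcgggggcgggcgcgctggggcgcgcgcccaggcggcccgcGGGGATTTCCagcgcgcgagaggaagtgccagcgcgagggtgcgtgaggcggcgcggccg
Tirap: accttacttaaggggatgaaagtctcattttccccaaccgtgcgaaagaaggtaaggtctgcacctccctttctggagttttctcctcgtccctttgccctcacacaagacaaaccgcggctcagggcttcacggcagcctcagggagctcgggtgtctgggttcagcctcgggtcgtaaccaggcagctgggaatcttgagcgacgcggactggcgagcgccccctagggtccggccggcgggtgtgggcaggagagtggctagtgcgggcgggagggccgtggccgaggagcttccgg
Irak2: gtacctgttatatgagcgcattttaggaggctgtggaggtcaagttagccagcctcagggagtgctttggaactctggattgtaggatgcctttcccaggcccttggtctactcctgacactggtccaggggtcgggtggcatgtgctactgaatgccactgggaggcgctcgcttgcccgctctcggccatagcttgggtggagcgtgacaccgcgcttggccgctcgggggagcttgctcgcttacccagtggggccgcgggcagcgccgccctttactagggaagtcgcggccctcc
Irak3: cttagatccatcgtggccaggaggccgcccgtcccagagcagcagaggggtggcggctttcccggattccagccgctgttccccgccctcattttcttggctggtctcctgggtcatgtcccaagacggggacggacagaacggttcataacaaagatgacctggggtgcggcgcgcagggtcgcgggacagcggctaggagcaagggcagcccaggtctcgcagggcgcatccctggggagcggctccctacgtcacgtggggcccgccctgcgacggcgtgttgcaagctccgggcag
The Traf3 window held 59 CpG and 84% G or C, against medians of 7 CpG and 52.7% over all 32851 windows, and its match GGGGATTTCC began 10 bases before the start. A match to this consensus stood in 4.5% of all windows, and the windows of Tirap, Irak2 and Irak3 shown had none. The window of Map3k7 had a match 92 bases before its start on the opposite strand. The window of Myd88 (chr9:119339969-119340268, - strand) held GAAAGCGAAA 40 bases before its start, a match to the ISRE core GAAANNGAAA, which was found in 3.44% of windows. These letters describe the windows and were not tied to the binding of any factor. Of the 10 genes, 9 had a window in the table and Tab1 was not matched.

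Expressed per kilobase of exon, Myd88 was far the most abundant of the 10 transcripts in each group. In vehicle pDC it averaged 72.1 ± 2.49 CPM per kb (SD, n = 2), followed by Irak2 at 23.0 ± 1.09. Tab1 (10.1 ± 2.26), Irak1 (8.05 ± 1.59), Irak4 (7.93 ± 0.829) and Traf6 (7.77 ± 0.271) came next in CPM per kb, with libraries that overlapped from each to the next. Map3k7 (2.19 ± 0.353) and Traf3 (2.08 ± 0.0247) also overlapped, and Tirap (1.43 ± 0.273) and the brake Irak3 (0.282 ± 0.0664) closed the order. In vehicle cDC, Irak1 at 9.50 ± 0.262 CPM per kb stood below Irak4 (11.8 ± 1.01) and Traf6 (9.80 ± 0.0213). Its libraries did not overlap theirs, whereas in vehicle pDC the libraries of these genes overlapped. The order differed at Tirap, which stood below Map3k7 in vehicle pDC and above it in vehicle cDC (4.45 ± 0.137 against 2.27 ± 0.0989 CPM per kb). Traf3, whose libraries overlapped those of Map3k7 in vehicle pDC, stood above it in vehicle cDC, at 5.79 ± 0.102 CPM per kb. Irak3 was again among the lowest there, at 1.96 ± 1.15 CPM per kb.

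**Figure D1:**
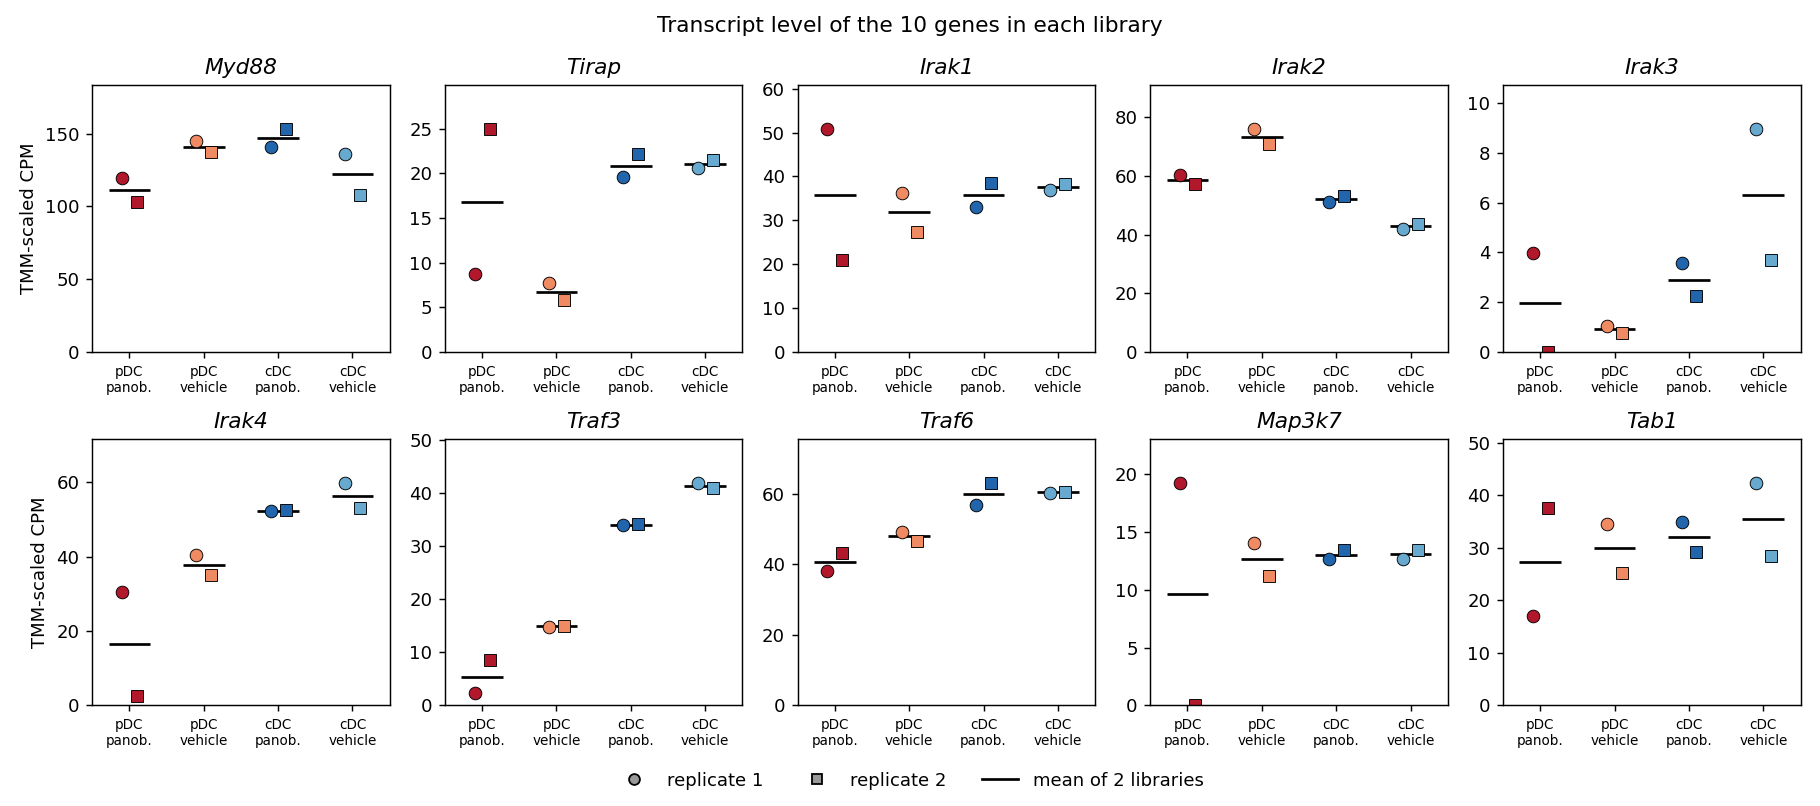
Level of each of the 10 genes (TMM-scaled CPM, linear axes from 0) in the 8 libraries, by group; circles are replicate 1, squares replicate 2 and bars the mean of 2 libraries. Traf3 is lower in all pDC libraries than in all cDC libraries, and the squares of panobinostat pDC sit at 0 for Irak3 and Map3k7.

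The comparison of the cell types under vehicle addresses how the MyD88 machinery of pDC differs from that of cDC without the drug. Traf3, Tirap and the brake Irak3 were lower in vehicle pDC, and Irak2 was higher, when the 4 vehicle libraries were fitted on their own. These 4 of the 10 genes passed an adjusted p of 0.05 in that fit, where 32.8% of all genes tested did. With all 8 libraries in one fit, which shares its spread with the panobinostat pDC libraries, none of the 10 passed, against 9.73% of all genes, while 3 had an unadjusted p under 0.05 by edgeR, as did 24.5% of all genes. Over the same 8 libraries DESeq2 called Tirap and Irak2, where it called 20.1% of all genes, and limma-voom called Irak2 and Traf3, where it called 13.9%. The 4 of 10 over the vehicle libraries and these counts of 2 lie close to the shares of all genes.

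Traf3 had 14.8 and 15.03 CPM in vehicle pDC, against 41.9 and 40.9 CPM in vehicle cDC. The groups lay far apart and the replicates of each nearly coincided. The log2 fold change was -1.50 ± 0.18 (SE), with an adjusted p of 0.00498 by the quasi-likelihood test of edgeR (Benjamini-Hochberg adjusted over all genes) in the 4 vehicle libraries, and -1.47 ± 0.61 with an adjusted p of 0.202 over all 8. Traf6, the other ubiquitin ligase, stood closer, with 49.1 and 46.8 CPM in vehicle pDC and 60.4 and 60.6 CPM in vehicle cDC. Its log2 fold change of -0.37 ± 0.16 did not pass by edgeR over the 4 vehicle libraries (adjusted p = 0.150). The ratio of Traf3 to Traf6 counts, which needs no scaling between libraries, was 0.301 and 0.321 in vehicle pDC, against 0.694 and 0.675 in vehicle cDC.

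Tirap, the sorting adaptor, had 7.67 and 5.84 CPM in vehicle pDC, against 20.6 and 21.5 CPM in vehicle cDC. The groups did not overlap, and the log2 fold change was -1.67 ± 0.26 by edgeR over the 4 vehicle libraries (adjusted p = 0.00930), against -1.64 ± 0.59 over all 8 (adjusted p = 0.152). Myd88 itself had 145 and 138 CPM in vehicle pDC and 136 and 108 CPM in vehicle cDC, a log2 fold change of 0.18 ± 0.19 that did not pass (adjusted p = 0.521 by edgeR over the 4 vehicle libraries). Tirap therefore stood low relative to Myd88 in pDC, with Tirap to Myd88 count ratios of 0.0530 and 0.0424 in vehicle pDC and 0.151 and 0.200 in vehicle cDC. Of the exon bases of Tirap, 9.43% lie under Gm39318 on the opposite strand, and no source used here says whether the counting used strand.

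Among the IRAK genes, Irak2 and Irak3 differed in opposite directions. Irak2, a kinase-like member that sustains signalling, had 75.9 and 70.9 CPM in vehicle pDC, against 42.0 and 43.6 CPM in vehicle cDC. Its log2 fold change was 0.75 ± 0.16 (adjusted p = 0.0240) by edgeR over the 4 vehicle libraries and 0.78 ± 0.20 (adjusted p = 0.0656) over all 8. Irak3 had 21 and 14 counts (1.06 and 0.757 CPM) in vehicle pDC, against 192 and 80 counts (8.95 and 3.69 CPM) in vehicle cDC. The groups did not overlap although the cDC libraries spread widely, and the log2 fold change was -2.83 ± 0.60 (adjusted p = 0.0219) by edgeR over the 4 vehicle libraries and -2.79 ± 1.72 (adjusted p = 0.411) over all 8. The kinases Irak4 and Irak1 were not called over the 4 vehicle libraries or over all 8. Irak4 had 40.5 and 34.9 CPM in vehicle pDC, against 59.7 and 52.9 CPM in vehicle cDC, with an adjusted p of 0.0615 by edgeR over the 4 vehicle libraries. Blocking on replicate number over those 4 libraries, it was called (-0.61 ± 0.16, adjusted p = 0.0273 by edgeR), where 43.4% of all genes were. Of its exon bases, 7.9% lie under Twf1 on the opposite strand. Irak1 had 36.3 and 27.4 CPM in vehicle pDC and 36.8 and 38.3 CPM in vehicle cDC.

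The genes of the TAK1 complex were not called. Map3k7 had 14.1 and 11.2 CPM in vehicle pDC and 12.7 and 13.5 CPM in vehicle cDC, with a log2 fold change of -0.08 ± 0.25 over the 4 vehicle libraries. Tab1 had 34.6 and 25.1 CPM in vehicle pDC and 42.3 and 28.4 CPM in vehicle cDC. For both genes the groups overlapped. In all, 8 of the 10 genes had vehicle libraries that did not overlap between the cell types, 2 higher in pDC and 6 lower, where 70.6% of all genes tested did not overlap. Under TMM scaling the median log2 fold change of the 10 genes was -0.29 over all 8 libraries, against 0.02 for all genes tested. With RLE scaling the median of all genes was -0.11, and that of the 10 is not given here. Summed markers of other cell types moved with this comparison too, in both directions. The 10 markers of myeloid progenitors or leukemic blasts summed to 67.7 to 69.5 CPM in vehicle pDC and 266 to 357 in vehicle cDC. Mpo, Elane and Ctsg were at 0 in vehicle pDC replicate 1, and Cd34 in replicate 2. Prtn3 and Ctsg were at 0 in vehicle cDC replicate 1, and Ms4a3 in replicate 2. The 10 neutrophil markers summed to 1.11 to 1.35 CPM in vehicle pDC, with 6 of them at 0 in each library, and to 22.7 to 31.8 in vehicle cDC. The 10 B cell markers summed to 130 to 210 CPM in vehicle pDC and 246 to 640 in vehicle cDC. The 10 T cell markers summed to 1006 to 1106 CPM in vehicle pDC and 166 to 167 in vehicle cDC, with Cd3g at 0 in 1 pDC library, and the 10 monocyte and macrophage markers summed to 1729 to 3497 CPM in vehicle pDC and 1005 to 1282 in vehicle cDC. Their part in the result was not tested.

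Under panobinostat, Traf3 was lower in pDC, the 1 gene of 10 called over all 8 libraries, where 18% of all genes were called. It had 47 and 92 counts (2.33 and 8.55 CPM) in panobinostat pDC, against 704 and 631 counts (33.9 and 34.3 CPM) in panobinostat cDC. Both pDC libraries were low, and they differed from each other more than those of cDC. The log2 fold change was -2.66 ± 0.64 (adjusted p = 0.0371 by edgeR over all 8 libraries), and -2.78 ± 0.64 (adjusted p = 0.0465) with the replicate number as a block. The call was lost over the 4 panobinostat libraries alone (-2.69 ± 0.88, adjusted p = 0.197) and when any 1 of the vehicle or cDC libraries was left out (adjusted p = 0.0758 to 0.169 by edgeR). It held when 1 panobinostat pDC library was left out (-3.93 ± 0.23 without replicate 2 and -2.00 ± 0.19 without replicate 1), in fits that called 36.1% and 65.9% of all genes.

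Traf6 had 38.1 and 43.3 CPM in panobinostat pDC, against 56.9 and 63.1 CPM in panobinostat cDC, with a log2 fold change of -0.56 ± 0.22 that did not pass by edgeR (adjusted p = 0.128). Irak4 stood at 30.4 and 2.42 CPM in panobinostat pDC, against 52.1 and 52.5 CPM in panobinostat cDC, and Myd88 at 120 and 103 CPM in panobinostat pDC, against 141 and 153 CPM in panobinostat cDC. Irak4 and Myd88 were lower in both pDC libraries, and neither passed. Irak2 was the higher in pDC in each library, with 60.2 and 57.1 CPM in panobinostat pDC and 51.0 and 53.0 CPM in panobinostat cDC (log2 fold change 0.17 ± 0.20, adjusted p = 0.589 by edgeR). Altogether 5 of the 10 genes did not overlap between the panobinostat groups, where 62.7% of all genes did not. Without replicate 2 of panobinostat pDC, 4 of the 10 were called under panobinostat (Tirap, Irak4, Traf3 and Traf6, all lower in pDC) and 5 under vehicle (Tirap, Irak2, Irak3, Irak4 and Traf3), against 36.1% of all genes in each of these comparisons. The 10 T cell markers summed to 714 to 842 CPM in panobinostat pDC and 169 to 184 in panobinostat cDC, with Cd3e and Tcf7 at 0 in both pDC libraries. The 10 NK cell markers summed to 593 to 1319 CPM in panobinostat pDC and 213 to 476 in panobinostat cDC. However, 8 of these NK cell markers had 0 counts in panobinostat pDC replicate 2, the library with the highest sum. In replicate 1, 2 of them had 0 counts, and none did in panobinostat cDC. The 10 monocyte and macrophage markers summed to 2758 to 5969 CPM in panobinostat pDC, with 7 of them at 0 in replicate 2, and to 757 to 932.5 in panobinostat cDC. The 7 erythroid markers found summed to 2407 to 6550 CPM in panobinostat pDC and 320 to 1871 in panobinostat cDC. The 8 plasma cell markers summed to 1079 to 1231 CPM in panobinostat pDC and 315 to 362 in panobinostat cDC. The 10 markers of myeloid progenitors or leukemic blasts ran the other way. They summed to 29.3 to 67.8 CPM in panobinostat pDC and 405 to 410 in panobinostat cDC. Mpo, Elane and Ctsg were at 0 in both panobinostat pDC libraries and also in replicate 1 of panobinostat cDC. The 10 neutrophil markers summed to 3.22 to 5.57 CPM in panobinostat pDC, with 7 of them at 0 in each library, and to 43.4 to 79.8 in panobinostat cDC. The part of these markers in the result was not tested.

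**Figure D2:**
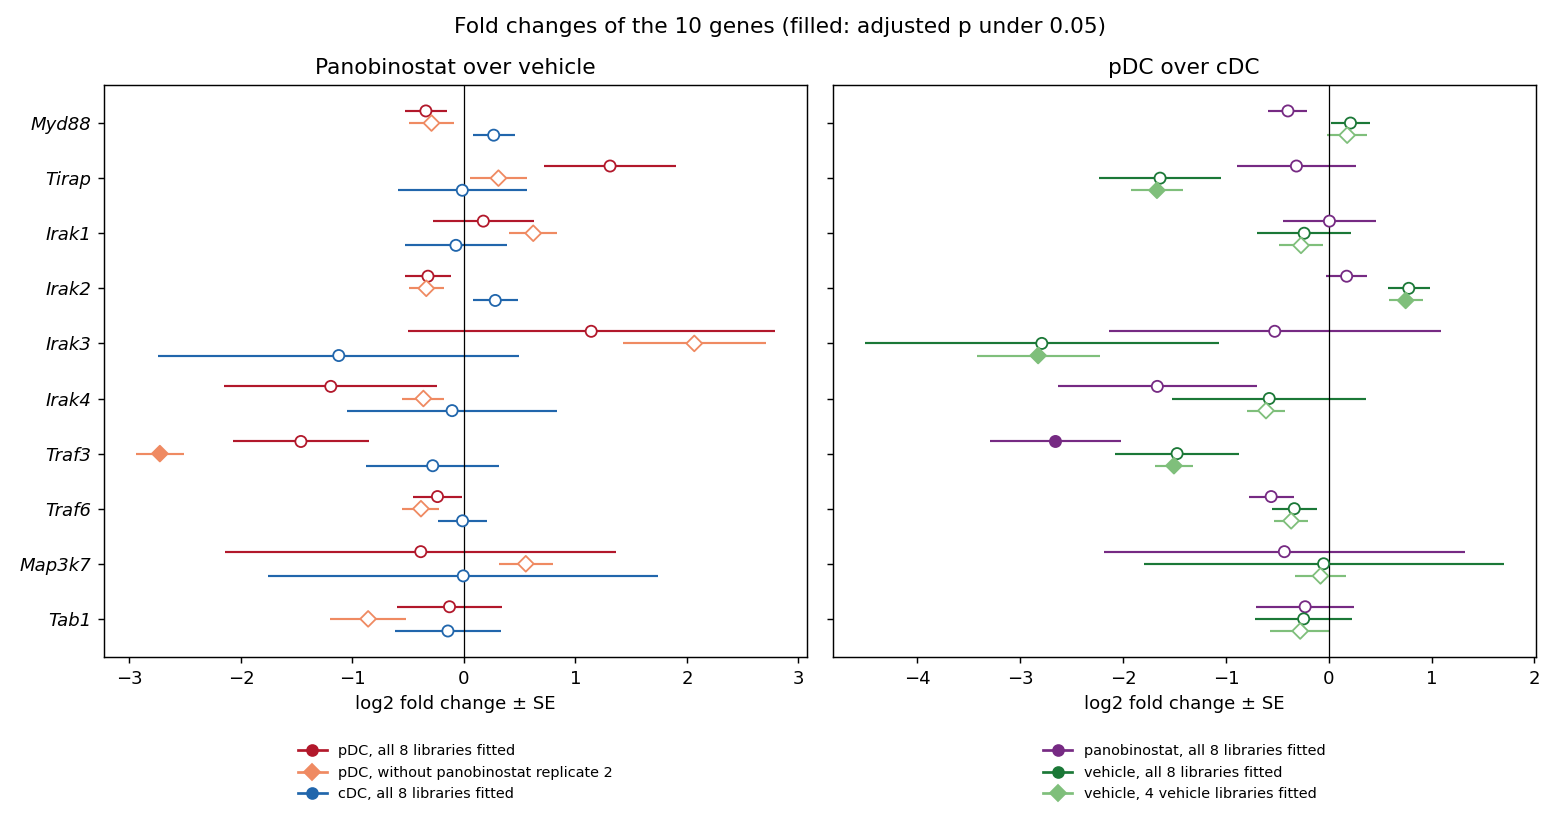
Log2 fold changes with their standard errors from edgeR for the 10 genes: panobinostat over vehicle in pDC and cDC (left) and pDC over cDC under panobinostat and vehicle (right). Filled symbols have an adjusted p under 0.05, which over all 8 libraries is the case for Traf3 between the cell types under panobinostat (-2.66) and for no other gene or comparison shown.

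The drug comparison in pDC asks whether panobinostat changes these transcripts in the interferon-producing type. Traf3 was low in both panobinostat libraries, but with all 8 libraries fitted none of the 10 genes passed, where 0.0913% of all genes did. None of the 10 had an unadjusted p under 0.05 by edgeR there, where 14.9% of all genes did. DESeq2 and limma-voom called none either, with 2 and 1 of the 10 at an unadjusted p under 0.05, against 20.2% and 18.5% of all genes. The 2 panobinostat pDC libraries lay far apart for several of the 10 genes, so both values are given for each.

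Traf3 had 47 and 92 counts (2.33 and 8.55 CPM) in panobinostat pDC, against 293 and 278 counts (14.8 and 15.03 CPM) in vehicle pDC. Each panobinostat library was below each vehicle library. The log2 fold change was -1.46 ± 0.61, with an unadjusted p of 0.0518 and an adjusted p of 0.340 by edgeR. Without panobinostat replicate 2 it was -2.73 ± 0.22 (adjusted p = 0.0141), and Traf3 was then the 1 gene of 10 called, where 4.78% of all genes were. Without panobinostat replicate 1 it was -0.81 ± 0.19 (adjusted p = 0.0125 by edgeR), among 5 of the 10 genes called (Tirap, Irak3, Irak4, Traf3 and Map3k7), in a fit where 55.3% of all genes were called. Traf3 to Traf6 count ratios were 0.0612 and 0.197 in panobinostat pDC, against 0.301 and 0.321 in vehicle pDC.

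The direction at Traf3 was thus the same in each panobinostat library, and its size differed. Traf6, with 38.1 and 43.3 CPM in panobinostat pDC and 49.1 and 46.8 CPM in vehicle pDC, had a log2 fold change of -0.24 ± 0.22. Myd88 had 120 and 103 CPM in panobinostat pDC, against 145 and 138 CPM in vehicle pDC (-0.34 ± 0.19, adjusted p = 0.440 by edgeR). Irak2 had 60.2 and 57.1 CPM in panobinostat pDC, against 75.9 and 70.9 CPM in vehicle pDC (-0.32 ± 0.20, adjusted p = 0.478). For these 3 genes the replicates of each group lay close together, the panobinostat libraries were the lower ones, and the differences did not pass.

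The remaining genes split the panobinostat pDC libraries. Irak4 had 613 and 26 counts (30.4 and 2.42 CPM) in panobinostat pDC, against 803 and 646 counts (40.5 and 34.9 CPM) in vehicle pDC. Map3k7 had 388 and 0 counts in panobinostat pDC, against 279 and 207 in vehicle pDC, and Irak3 had 80 and 0 counts in panobinostat pDC, against 21 and 14 in vehicle pDC. The library with 0 counts is the one with few genes detected, where 0 allows up to 0.279 CPM (3 counts, counting error only). Without it, Map3k7 stood at 19.2 CPM in panobinostat pDC, above the 14.1 and 11.2 CPM of vehicle pDC, with a log2 fold change of 0.55 ± 0.24 in place of -0.39 ± 1.75, and Irak3 at 3.97 CPM, above 1.06 and 0.757 CPM. Tirap ran the other way, with 8.68 and 24.9 CPM in panobinostat pDC, against 7.67 and 5.84 CPM in vehicle pDC, and its log2 fold change of 1.31 ± 0.59 became 0.31 ± 0.25 without replicate 2. Irak1 (50.7 and 20.99 CPM in panobinostat pDC, 36.3 and 27.4 CPM in vehicle pDC) and Tab1 (17.1 and 37.6 CPM in panobinostat pDC, 34.6 and 25.1 CPM in vehicle pDC) had panobinostat libraries on either side of the vehicle ones.

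In pDC, 6 of the 10 genes had panobinostat and vehicle libraries that did not overlap, Tirap above and Myd88, Irak2, Irak4, Traf3 and Traf6 below, where 42.2% of all genes did not overlap. Under TMM scaling the median log2 fold change of the 10 was -0.28, against -0.14 for all genes. The median of all genes was -0.11 under RLE scaling and -0.28 under scaling by total counts. The median of the 10 under those 2 scalings is not given here, so it cannot be set against them. Summed markers of other cell types moved in both directions. The 10 T cell markers summed to 714 to 842 CPM in panobinostat pDC, with Cd3e and Tcf7 at 0 in both libraries, against 1006 to 1106 in vehicle pDC. The 10 markers of myeloid progenitors or leukemic blasts summed to 29.3 to 67.8 CPM in panobinostat pDC and 67.7 to 69.5 in vehicle pDC, with 7 of them at 0 in panobinostat replicate 2. The 10 NK cell markers summed to 593 to 1319 CPM in panobinostat pDC, against 180 to 275 in vehicle pDC, although 8 of them, Ncr1, Klrb1c and Prf1 included, had 0 counts in panobinostat replicate 2. The 7 erythroid markers found summed to 2407 to 6550 CPM in panobinostat pDC and 1190 to 2162 in vehicle pDC. The 10 neutrophil markers summed to 3.22 to 5.57 CPM in panobinostat pDC, with 7 of them at 0 in each library. In vehicle pDC they summed to 1.11 to 1.35 CPM, with 6 of them at 0 in each library. The 10 monocyte and macrophage markers summed to 2758 to 5969 CPM in panobinostat pDC, with 7 of them at 0 in replicate 2, against 1729 to 3497 in vehicle pDC. Their part in the result was not tested.

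None of the 10 genes passed in cDC under panobinostat. Their log2 fold changes over all 8 libraries ran from -1.12 ± 1.62 for Irak3 to 0.28 ± 0.20 for Irak2, with a median of -0.04, against 0.00 for all genes. Across all genes 0% were called in this comparison by edgeR, while 206 genes (1.45%) had an unadjusted p under 0.05 and DESeq2 called 15 (0.105%). Traf3 had 33.9 and 34.3 CPM in panobinostat cDC, against 41.9 and 40.9 CPM in vehicle cDC. Replicates lay close and the groups did not overlap, and over the 4 cDC libraries alone the log2 fold change was -0.30 ± 0.11 (unadjusted p = 0.0461, adjusted p = 0.505 by edgeR). Traf3 was the 1 gene of the 10 with an unadjusted p under 0.05 by edgeR in that fit, where 9.77% of all genes had one. Irak2 had 51.0 and 53.0 CPM in panobinostat cDC, against 42.0 and 43.6 CPM in vehicle cDC, a log2 fold change of 0.26 ± 0.11 over those 4 libraries (adjusted p = 0.531 by edgeR). Myd88 had 141 and 153 CPM in panobinostat cDC, against 136 and 108 CPM in vehicle cDC. Irak3 had 3.57 and 2.23 CPM in panobinostat cDC, against 8.95 and 3.69 CPM in vehicle cDC.

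Tirap, Irak1, Traf6, Map3k7 and Tab1 overlapped between the cDC groups, and 5 of the 10 genes did not, against 41.1% of all genes. Summed cDC markers were 26890 to 29260 CPM in panobinostat cDC and 18350 to 22270 in vehicle cDC. The 10 NK cell markers summed to 213 to 476 CPM in panobinostat cDC and 146 to 195 in vehicle cDC, with Eomes at 0 in 1 vehicle library. The 10 monocyte and macrophage markers summed to 757 to 932.5 CPM in panobinostat cDC and 1005 to 1282 in vehicle cDC. Those of myeloid progenitors or leukemic blasts summed to 405 to 410 CPM in panobinostat cDC and 266 to 357 in vehicle cDC. Neutrophil markers summed to 43.4 to 79.8 CPM in panobinostat cDC, with 4 and 2 of them at 0, and 22.7 to 31.8 in vehicle cDC. T cell markers summed to 169 to 184 CPM in panobinostat cDC and 166 to 167 in vehicle cDC. The part of these markers in the result was not tested.

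Whether the drug acted differently in pDC and cDC was tested as the difference of the effects. Myd88 and Irak2 had lower panobinostat libraries in pDC and higher ones in cDC, with differences of -0.61 ± 0.27 (adjusted p = 0.666 by edgeR) and -0.60 ± 0.29 (adjusted p = 0.702) on the log2 scale. For Traf3 the difference was -1.18 ± 0.85 (adjusted p = 0.817 by edgeR over all 8 libraries). None of the 10 differences passed, against 0.00702% of all genes, and none had an unadjusted p under 0.05 by edgeR without a block or by limma-voom. By DESeq2 1 did, against 9.95% of all genes. With the replicate block Myd88 did, against 8.79% of all genes, at an adjusted p of 0.559 by edgeR. Without panobinostat pDC replicate 2 the difference for Traf3 was -2.43 ± 0.25 (adjusted p = 0.0281), the 1 call among the 10, where 1.85% of all genes were called. Without panobinostat pDC replicate 1 it was -0.54 ± 0.23 (adjusted p = 0.105 by edgeR), and 4 others of the 10 were called, namely Tirap, Irak2, Irak4 and Map3k7, in a fit that called 43.4% of all genes.

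**Figure D3:**
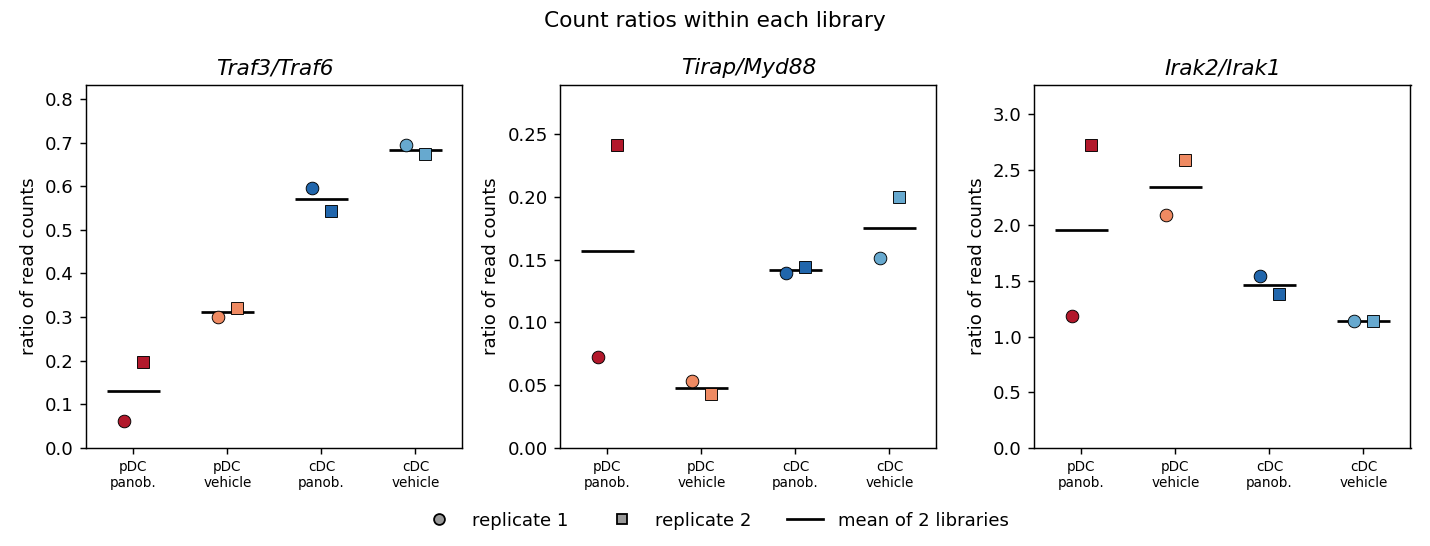
Ratios of read counts within each library for Traf3 over Traf6, Tirap over Myd88 and Irak2 over Irak1 (linear axes from 0), by group; circles are replicate 1, squares replicate 2 and bars the mean. Traf3 over Traf6 is 0.0612 and 0.197 in panobinostat pDC and 0.301 and 0.321 in vehicle pDC, all under the cDC values, and the replicates of panobinostat pDC lie apart in all 3 ratios.

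Around the 10 genes, 96 other genes of the pathway were listed, of which 95 could be tested. In the vehicle comparison 6 of them were higher and 9 lower in pDC by edgeR over all 8 libraries (15.8% called, against 9.73% of all genes), and 11 were higher and 30 lower over the 4 vehicle libraries (43.6% of the 94 tested there, against 32.8% of all genes). Their median log2 fold change was -0.46, against 0.02 for all genes. Of the 18 receptors listed 2 were higher and 1 was lower over all 8 libraries, and 3 were higher and 8 lower over the 4 vehicle libraries, with a median log2 fold change of -1.17 over all 8. Tlr7, which senses single-stranded RNA, had 289 and 334 CPM in vehicle pDC, against 19.0 and 35.7 CPM in vehicle cDC (log2 fold change 3.51 ± 0.42, adjusted p = 0.00569 by edgeR). Tlr9, added after its values were seen, was not called between the vehicle groups. Its log2 fold change was 0.51 ± 0.61 over all 8 libraries (adjusted p = 0.735 by edgeR), with an adjusted p of 0.265 by edgeR over the 4 vehicle libraries. Tlr12 was also higher in vehicle pDC (1.83 ± 0.30), as Tlr7 was. Tlr11, a sensor of a protozoan profilin with which mouse TLR12 can pair, had 7 and 21 counts in vehicle pDC, against 2576 and 3431 counts in vehicle cDC.

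Of the 10 other adaptors and scaffolds, 3 were higher and 1 was lower in vehicle pDC over all 8 libraries (where 9.73% of all genes were called). Over the 4 vehicle libraries 3 were higher and 2 lower (where 32.8% of all genes were called). Unc93b1, the chaperone that carries TLR7 and TLR9 to endosomes, had 2109 and 1958 CPM in vehicle pDC, against 985 and 1034 CPM in vehicle cDC (1.01 ± 0.19). Scimp (2.37 ± 0.24) and Pik3ap1 (1.64 ± 0.30), adaptors linked to Toll-like receptors, were higher as well. Tnip3, a partner of the ubiquitin-editing enzyme A20, had 3 and 4 counts in vehicle pDC, against 480 and 221 in vehicle cDC. Among partners of the IRAK proteins and TRAF6, Peli1, a ubiquitin ligase, was lower in vehicle pDC (-2.77 ± 0.44, adjusted p = 0.0158 by edgeR), the 1 gene called among the 19 of its list that were tested over all 8 libraries, while 2 were higher and 3 lower over the 4 vehicle libraries.

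Other TRAF genes and partners of TRAF3 were lower in vehicle pDC in 4 of 17 cases over all 8 libraries, and over the 4 vehicle libraries 8 were lower and 1, Traf4, was higher. For this list and the next ones, the share of all genes called was 9.73% over all 8 libraries and 32.8% over the 4 vehicle libraries. Traf1 had 40.3 and 53.3 CPM in vehicle pDC, against 427 and 374 CPM in vehicle cDC (-3.10 ± 0.52). Traf2 (-0.87 ± 0.19) and Birc2 (-1.06 ± 0.18), which act with TRAF3 on the kinase NIK, were lower too. Tbkbp1, an adaptor of the kinase TBK1, had 1 and 0 counts in vehicle pDC, against 45 and 79 in vehicle cDC, and its adjusted p of 0.0382 by edgeR became 0.0702 with the replicate block. No gene of the IKK and MAP kinase list was called among 14 over all 8 libraries, and over the 4 vehicle libraries 1 was higher and 3 were lower. Among 17 transcription factors, Irf7, the driver of interferon alpha genes in pDC, was higher in vehicle pDC (2.74 ± 0.35), with 832 and 1376 CPM against 148 and 182 CPM in vehicle cDC. The non-canonical NF-kB subunits Nfkb2 (-1.26 ± 0.23) and Relb (-4.05 ± 0.66) were lower. Of these 17, 1 was higher and 6 were lower over the 4 vehicle libraries.

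Under panobinostat 8 of the 95 were higher and 15 lower in pDC than in cDC by edgeR over all 8 libraries (24.2% called, against 18% of all genes), with a median log2 fold change of -0.56, against -0.18 for all genes. Over the 4 panobinostat libraries alone 2 were higher and 1 lower, namely Scimp, Tlr7 and Nfkb2, where 1.21% of all genes were called. Nfkb2 had 27.2 and 29.6 CPM in panobinostat pDC, against 259 and 231 CPM in panobinostat cDC (-3.11 ± 0.25, adjusted p = 0.00143 by edgeR). Nfkb1 (-1.33 ± 0.18), Irf5 (-1.46 ± 0.18), Relb (-4.32 ± 0.67), Traf1 (-3.01 ± 0.52) and Traf2 (-0.84 ± 0.19) were lower in panobinostat pDC, and Tlr7 (3.95 ± 0.43), Scimp (2.64 ± 0.24), Traf4 (2.90 ± 0.59) and Usp25 (1.78 ± 0.45) were higher. Peli1 was lower (-1.61 ± 0.42), as under vehicle. Peli2, a relative of Peli1, had 915 and 67 counts in panobinostat pDC, against 2 and 1 in panobinostat cDC. Tnip3, Tlr8, Il18rap and Tbkbp1 had 0 counts in both panobinostat pDC libraries. In panobinostat cDC, Tnip3 had 290 and 159 counts and Il18rap, a chain of the interleukin-18 receptor, had 105 and 109. Tlr8 had 37 and 20 counts in panobinostat cDC, and Tbkbp1 had 35 and 21. Tlr11 had 42 and 0 counts in panobinostat pDC, against 3822 and 5105 in panobinostat cDC (adjusted p = 0.0144 by edgeR). The call for Tbkbp1 was lost with the replicate block (adjusted p = 0.0539), as were those for Birc2, Tlr1, Il1rl2 and Ikbke (adjusted p = 0.0512 to 0.0660), 4 names chosen after their values were seen.

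**Figure D4:**
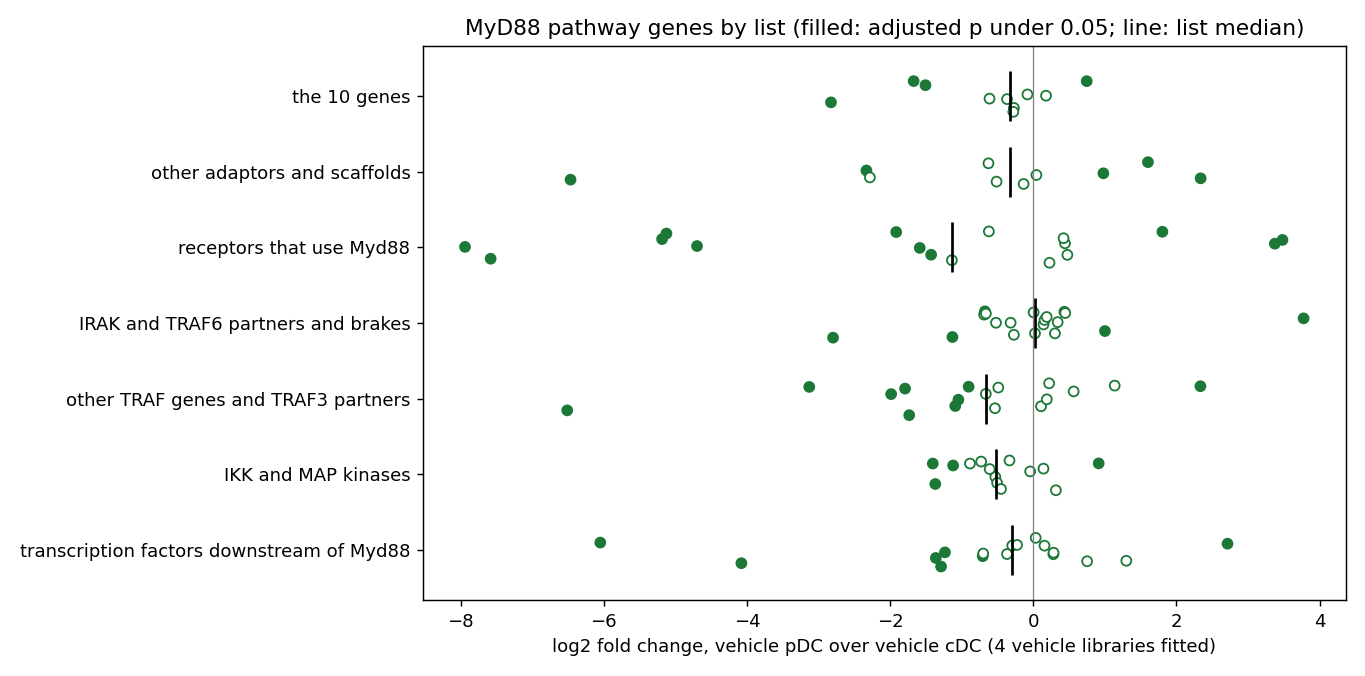
Log2 fold changes of vehicle pDC over vehicle cDC for the 10 genes and 6 lists of other pathway genes, from edgeR over the 4 vehicle libraries; each point is a gene, filled where the adjusted p is under 0.05, and black lines are list medians (vertical scatter within a list carries no value). Of the 10 genes 4 are filled, and of the other genes 41 are, 11 to the right of 0 and 30 to the left, where 32.8% of all genes passed.

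For the drug itself, none of the 95 pathway genes was called in pDC, in cDC or for the difference over all 8 libraries by edgeR. In pDC the median of their log2 fold changes was -0.20, against -0.14 for all genes. Nfkb2 had 27.2 and 29.6 CPM in panobinostat pDC, against 104 and 144 CPM in vehicle pDC (-2.13 ± 0.24, adjusted p = 0.0655 by edgeR). Without panobinostat replicate 2 it passed (-2.25, adjusted p = 0.0226), as did Relb (-2.11), Traf1 (-1.48), Map3k14 (-2.50), which encodes NIK, Rela (-0.91) and Ticam1 (-1.40), all lower, and Tlr4 (1.74), higher, so that 7.37% of the pathway genes were called, against 4.78% of all genes. These calls rest on 1 panobinostat library, and over all 8 libraries the log2 fold changes were -0.73 for Relb, -0.39 for Traf1 and 0.83 for Tlr4, with adjusted p of 0.238 to 0.807 by edgeR for the 6 genes other than Nfkb2. Traf1 had 17.5 and 54.4 CPM in panobinostat pDC, against 40.3 and 53.3 CPM in vehicle pDC, so replicate 2 lay above both vehicle libraries. Map3k14, Rela, Ticam1 and Tlr4 were chosen after their values were seen. From the kinase list, Ikbkb had 151 and 118 CPM in panobinostat pDC, against 224 and 163 CPM in vehicle pDC (-0.52 ± 0.26), and Map2k3 had a log2 fold change of -0.44 ± 0.22, neither of which passed.

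Across the 8 libraries, the genes with levels most like those of 3 of the 10 were sought among 8187 genes by Pearson's r of log2 CPM, as a description in which all points share the same libraries and group structure. For Traf3 they were Ahcy (r = 0.993), Aldh16a1 (0.989) and Uxs1 (0.983). For Irak2 they were Padi2 (0.992), Rubcnl (0.980) and Acap1 (0.978), and for Myd88 they were Tufm (0.919), Ddx39b (0.916) and Atf6 (0.908).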

How the data were processed

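Spleen cells were sorted, their RNA was purified (Trizol, Direct-zol) and mRNA libraries were prepared with a NEBNext low-input kit, per the labels' protocols. The tools were, per the submitters' processing notes, bcl2fastq (2.17.1.14), FastQC (0.11.6), cutadapt (2.1), HISAT2 (2.1.0), featureCounts from Subread (2.0.0) and limma, with build mm10. The authors deposited whole-number read counts per Entrez gene ID and library, the unit of everything computed here. The use of strand, the gene annotation and the treatment of multiply aligned reads: not given in the sources used here. Of 27179 IDs, 25275 (92.99%) matched a symbol.

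Counts were analysed in R (4.3.3) with edgeR (4.0.16): filterByExpr (minimum count 10, minimum total 15) kept 14238 genes, TMM scaled the libraries, and 1 coefficient per group was fitted over all 8 libraries (4 residual and 2.32 prior degrees of freedom). Each contrast had edgeR's quasi-likelihood F test, with p-values adjusted by Benjamini-Hochberg over all genes tested and a threshold of 0.05. Standard errors were derived from the test statistic. CPM uses TMM-scaled library sizes, and log2 CPM a prior count of 2. Exon lengths are unions of exons of the GENCODE basic annotation of GRCm38. Alternatives were RLE scaling, no filter and a stricter one, DESeq2 (1.42.0), limma-voom (3.58.1), a replicate block, only the 4 libraries compared, and leaving out each library. The same with only 4 libraries and the replicate block was added after the data were seen. With 1 library left in a group, that library is assumed to vary like the others. The code was tested on simulated data.

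The labels give replicates 1 and 2 in every group. Deviations of same-numbered libraries from their group means correlated at 0.146 to 0.489 between groups over genes. Each of the 6 correlations exceeded 0.1. The labels do not say what a number shares, and the tests as reported are unpaired. Values with the replicate number as a block are given where they change a call. P-values rest on the spread between the 2 pools of mice within a group, pooled over the groups in a fit and moderated across genes. Reads carry no molecular identifiers, so floors cover counting error only.

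The 10 genes, the 6 lists of 96 other pathway genes and the marker lists were chosen with earlier results of these data known. All 10 genes were named. From each list, the genes past the threshold in a comparison were named, at most the 4 with the smallest p per list and comparison, or, where none passed, the 2 with the smallest p in the drug comparisons. Likeness was sought for Myd88, for the gene of the 10 with the smallest p between cell types under vehicle (Irak2) and for Traf3, which was called.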

Additional observations from a re-analysis of the deposited data

How the results depend on the processing

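Of 780 values of the 10 genes under the alternatives, 687 kept their direction and their side of the threshold, 41 newly passed, 8 no longer passed and 44 changed sign. The cause was not tested.

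Leaving out 1 library at a time, the number of the 10 genes called ran from 0 to 5 for panobinostat in pDC (0% to 55.3% of all genes), 0 to 4 for the difference of the drug effects (0% to 43.4%), 0 to 5 between cell types under vehicle (1.92% to 37.2%) and 0 to 6 under panobinostat (2.3% to 65.9%). Between cell types under vehicle, DESeq2 and limma-voom each called 2 of the 10 (20.1% and 13.9% of all genes), and the 4 libraries compared called 4, or 5 with the replicate block (32.8% and 43.4%). Under panobinostat, DESeq2 called 2 (31.6%), and the 4 libraries compared called 0 with or without the replicate block (4.44% and 1.21% of all genes). With the block on all 8 libraries these counts were 0, 0, 0, 0 and 1, as without it, against 0%, 0%, 0%, 8.72% and 16.2% of all genes. Among the pathway genes the block took away the calls of Tbkbp1 under vehicle and of Tbkbp1, Birc2, Tlr1, Il1rl2 and Ikbke under panobinostat.

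The log2 fold changes of the following genes changed sign with 1 library left out. For panobinostat in pDC they ran from -0.61 to 0.62 for Irak1, -7.11 to 2.07 for Irak3, -0.86 to 0.32 for Tab1 and -10.89 to 0.55 for Map3k7. For panobinostat in cDC they ran from -0.10 to 0.0746 for Tirap, -0.18 to 0.039 for Irak1, -0.085 to 0.0645 for Traf6, -0.0454 to 0.0412 for Map3k7 and -0.40 to 0.18 for Tab1. For the difference they ran from -0.54 to 0.71 for Irak1, -5.99 to 3.21 for Irak3, -10.89 to 0.58 for Map3k7 and -0.70 to 0.46 for Tab1. Between cell types under vehicle they ran from -0.22 to 0.0653 for Map3k7 and -0.50 to 0.0789 for Tab1. Under panobinostat they ran from -1.32 to 0.25 for Tirap, -0.77 to 0.45 for Irak1, -0.97 to 0.23 for Tab1, -8.77 to 0.39 for Irak3 and -10.93 to 0.50 for Map3k7. The lowest values of Irak3 and Map3k7 rest on a group at 0 counts and are no measure of size.

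Under other settings, Irak3 in pDC came to -1.23 with limma-voom and -1.06 over the 4 libraries with the replicate block, and Irak1 to -0.0103 there. The difference for Irak3 came to -0.22 with limma-voom, and that for Tab1 to -0.33 with limma-voom and -0.0111 without the filter. Irak1 between cell types under panobinostat, 0.0067 as reported, came to -0.0745 with RLE scaling, -0.0729 with DESeq2, -0.0202 without the filter, -0.018 over the 4 libraries, -0.0786 with the replicate block and -0.16 with the block over the 4 libraries.

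Counts of all genes called moved widely. For panobinostat in pDC, 13 genes became 2 with RLE scaling, 68 without the filter, 906 with DESeq2, 0 with limma-voom, the replicate block or the 4 libraries compared, and 0 to 8227 with 1 library left out. For cDC, 0 became 15 with DESeq2 and 106 over the 4 libraries with the block. The difference, 1 as reported, went to 290 with DESeq2, 5 without the filter, 0 with RLE scaling, limma-voom or the replicate block, and 0 to 6457 with 1 library left out. Between cell types under vehicle, 1385 became 2861 with DESeq2, 4491 over the 4 libraries, 5954 with the block there, and 288 to 5531 with 1 library left out. Under panobinostat, 2557 became 4495, 161 and 589 under the same settings, and 346 to 9796 with 1 library left out. The depth and the 0 counts of replicate 2 of panobinostat pDC limit what can be seen in that group.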
